A study of Mus musculus with 8 samples.

Results

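The 34 genes described here mark astrocytes or serve their known tasks: uptake of transmitter, gap junctions and water transport, metabolism, secretion and the reactive state. They were chosen by name, with earlier results of these data known. They were read as 34 rows of a count table of 54735 genes from punches of the mouse ventral tegmental area (VTA). The VTA is the midbrain region that holds dopaminergic neurons. All 34 passed the filter on low counts, which left 16538 genes tested. The question was how their RNA levels differed between mice exposed to social stress in early life (SS) and controls (CTR), as far as 4 libraries per group could show.

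Every mouse was of the DBA2/J strain and carried the label male, and no transgene or drug was part of these groups. SS pups had spent 30 min per day with an unfamiliar adult male mouse (of the CD1 strain and gonadectomized, per the methods of the study) on 7 consecutive days between postnatal days (P) 14 and 21, and CTR pups stayed unhandled with their mother. The labels give P21 as the age at collection, whereas the methods of the study place collection on the day after the last exposure. Each library came from the left and right VTA of 1 mouse, and the libraries are named by group and label number: CTR-1 to CTR-3 and CTR-5, and SS-2 to SS-5. Litter was not labelled, so siblings may be among the mice of a group.

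Astrocytes are the glial cells that clear glutamate and GABA from around synapses, turn glutamate into glutamine for return to neurons, buffer potassium and water through membranes that touch vessels, and feed neurons with lactate from their own glycogen. They secrete lipoproteins and matrix proteins, and their intermediate filament protein, glial fibrillary acidic protein, is low in many deep brain regions and increases when astrocytes react to injury. In the VTA, astrocytic uptake of glutamate and GABA is known to shape the firing of dopaminergic neurons.

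Library totals ranged from 20036086 to 47319997 counts on genes. In 2 libraries, CTR-5 and SS-5, the transcripts went against the label male: Xist, the RNA of the inactive X chromosome, stood at 382 and 252 CPM (counts in 1000000), and 4 Y-linked transcripts summed to 0.0764 and 0 CPM, against 118 to 170 CPM in the other 6 libraries. Log2 fold changes without these 2 libraries are therefore given for each astrocyte or pathway gene named below whose value moved by over 1.5 times or changed sign. Dopaminergic neuron markers had the largest median difference of the cell type lists examined: 5 of 7 passed edgeR's quasi-likelihood test, and their summed level was 890.1 to 2118 CPM in CTR and 196 to 282 CPM in SS. Th, tyrosine hydroxylase, was at 472, 161, 169 and 322 CPM in the CTR libraries and at 15.7, 15.8, 14.1 and 25.5 CPM in the SS libraries. The part of this difference in the astrocyte values from the same punches was not tested.

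Astrocyte RNA was plentiful in every library. The 7 defining markers (Aqp4, Gja1, Aldh1l1, Slc1a3, Slc1a2, Gfap and Gjb6) were all detected in all 8 libraries, from 17.7 CPM for Gfap in SS-4 to 2203 CPM for Slc1a2 in CTR-5. The 34 genes together made up 13794 to 15732 CPM in CTR and 13335 to 14689 CPM in SS, so that the groups overlapped. In bulk samples fewer astrocytes and less RNA per astrocyte cannot be told apart.

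None of the 34 genes passed the threshold of an adjusted p of 0.05 in edgeR's quasi-likelihood test with Benjamini-Hochberg adjustment over all genes tested. Of all 16538 genes, 14 passed (0.0847%), so 0 of 34 is what that share would give. DESeq2 called 1 of the 34, Glul, where it called 0.419% of all its genes, and limma voom called 0. Without adjustment, 6 of the 34 had a p under 0.05 with a lower level in SS (17.6%, against 3.70% of all genes), and 0 of 34 had one with a higher level in SS (against 2.85% of all genes). The libraries of the groups did not overlap for 3 genes lower in SS (8.82%, against 2.21% of all genes) and for 0 genes higher in SS (against 2.47%). Among the 9087 genes tested in the same range of mean CPM as these genes, 5.21% had such an unadjusted p with a lower level and 2.76% did not overlap with a lower level. These shares carry no test, and the genes share cells and libraries.

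The log2 fold changes of SS against CTR ran from -0.75 for Gfap to 0.20 for Slc7a10, with 25 of the 34 below 0. That is 73.5%, against 49.4% of all genes tested and 51.3% of the 9087 genes in the same range of mean CPM. The share carries no test. The median of the 34 was -0.10, where the median over all genes tested was 0.0037. The intervals bound how large a difference these libraries leave room for: the 95% interval of 32 of the 34 genes lay within a log2 fold change of 1 in either direction, and that of 22 lay within 0.5. Among the 9087 genes of similar level, 96.9% and 56.4% had intervals within those limits. Gfap and Id3 were the 2 genes with wider intervals.

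**Figure D1:**
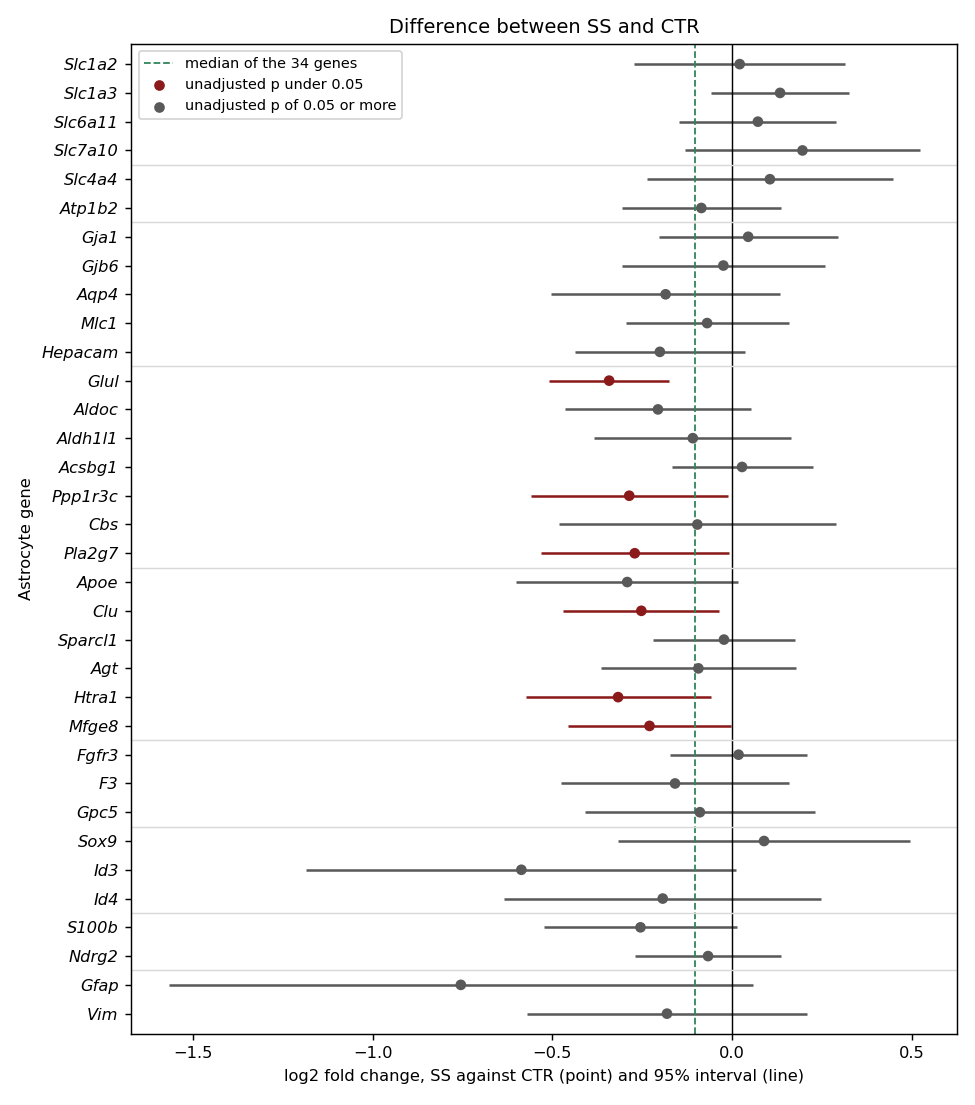
Log2 fold change of SS against CTR for each of the 34 astrocyte genes (point), grouped by role. Each line is the 95% interval derived from the F statistic of edgeR's quasi-likelihood test. Genes of an unadjusted p under 0.05 in that test are in dark red, and the median of the 34 is a dashed line. The 6 red genes all lie below 0, the dashed line stands at -0.10, and the widest intervals belong to Gfap and Id3.

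The transporters that clear transmitter had small differences on the upper side of 0. Slc1a2 and Slc1a3 encode the glutamate transporters GLT-1 and GLAST, Slc6a11 encodes the GABA transporter GAT3, and Slc7a10 encodes the D-serine and alanine transporter Asc-1. All 4 had log2 fold changes above 0 (median 0.10), although Slc1a2 lay below 0 without CTR-1, without SS-4, without CTR-1 and CTR-2 together or with a replicate block, and Slc6a11 lay below 0 with the block. None of the 4 had an unadjusted p under 0.05. Slc1a2 was at 1299, 2027, 1780.3 and 2203 CPM in the CTR libraries, in their numbered order, and at 1801, 1920.0, 2011 and 1689 CPM in the SS libraries. The CTR libraries thus spanned the SS libraries on both sides, with CTR-1 lowest and CTR-5 highest. Its log2 fold change was 0.022 (SE 0.13, 95% interval -0.27 to 0.32), and it was -0.10 without CTR-1 and CTR-2 and 0.17 without CTR-5 and SS-5.

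Slc1a3 was at 302, 374, 313 and 338 CPM in CTR and 344, 365, 385 and 361 CPM in SS, which put the SS libraries in the upper part of the CTR range and SS-4 above it. Its log2 fold change was 0.13 (95% interval -0.058 to 0.33), and leaving out each library in turn gave 0.092 to 0.20. Slc6a11 averaged 845 ± 124 CPM across CTR and 889 ± 39.5 CPM across SS libraries (SD, n = 4), and Slc7a10 averaged 48.5 ± 8.90 and 55.6 ± 6.35 CPM. Part of Slc7a10 overlaps Lrp3 on the other strand, and the strand setting of the counting was not given in the sources used here. Slc1a2 and Gm13872 share bases in the same way. The log2 fold changes were 0.072 for Slc6a11 and 0.20 for Slc7a10, and 0.016 and 0.11 without CTR-5 and SS-5.

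The promoter of Slc1a3 is shown beside that of Glul, the enzyme that acts on the glutamate its product takes up, because the pair forms the first steps of the glutamate-glutamine cycle and because Glul had the lowest p of the 34 genes. The sequences are the 250 bases upstream of the RefSeq start on GRCm38.p6, read 5′ to 3′ on the strand of the gene, at chr15:8710808-8711057 (minus strand) for Slc1a3 and chr1:153899679-153899928 (plus strand) for Glul. Capitals mark matches, on either strand, to the glucocorticoid receptor half-site AGAACA, the STAT element TTCNNNGAA or the TATA box motif TATAAA.
Slc1a3: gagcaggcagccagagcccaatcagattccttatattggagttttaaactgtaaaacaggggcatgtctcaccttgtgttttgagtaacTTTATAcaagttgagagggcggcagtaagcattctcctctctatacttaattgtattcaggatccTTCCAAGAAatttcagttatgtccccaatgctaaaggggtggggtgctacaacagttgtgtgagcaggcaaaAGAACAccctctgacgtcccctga
Glul: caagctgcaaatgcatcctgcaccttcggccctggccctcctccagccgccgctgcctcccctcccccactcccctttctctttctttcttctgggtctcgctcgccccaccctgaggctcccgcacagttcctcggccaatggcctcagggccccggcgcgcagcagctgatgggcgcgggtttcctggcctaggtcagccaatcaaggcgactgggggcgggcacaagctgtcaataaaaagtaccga
The Slc1a3 window held all 3 motifs, and the Glul window held none of them and no TGACGTCA (a cyclic AMP response element). Promoter windows were found for 29 of the 34 genes, 36 windows in all, as some genes had more than 1. AGAACA was present in 4 of these 36 windows and in 16.1% of all 32851 windows. In the same order, TTCNNNGAA was in 5 and 7.02%, TATAAA in 6 and 12.4%, and TGACGTCA in 0 and 1.55%. A match is a description of the letters in the window, not a site of binding.

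Bicarbonate transport and the sodium pump gave values on both sides of 0. Slc4a4, which encodes the sodium bicarbonate cotransporter NBCe1, ranged from 177 to 324 CPM in CTR and from 273 to 311 CPM in SS, with CTR-1 far below the other 7 libraries. Atp1b2, the beta subunit of the sodium pump also known as AMOG, averaged 1274 ± 183 CPM across CTR and 1201 ± 79.5 CPM across SS libraries (SD, n = 4). Their log2 fold changes were 0.11 (95% interval -0.24 to 0.45) and -0.085 (-0.31 to 0.14), and 0.23 and -0.15 without CTR-5 and SS-5.

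Of the 5 membrane proteins of gap junctions and end-feet, 4 had log2 fold changes below 0 and none reached an unadjusted p of 0.05. Gja1 and Gjb6 encode connexin 43 and connexin 30, which couple astrocytes into networks. Gja1 averaged 272 ± 35 CPM across CTR and 281 ± 31.7 CPM across SS libraries, and Gjb6 averaged 60.8 ± 8.78 and 59.8 ± 5.54 CPM (SD, n = 4 each). Both log2 fold changes, 0.045 and -0.024, lay within 0.05 of 0, with intervals of -0.20 to 0.29 and -0.31 to 0.26, and without CTR-5 and SS-5 they were 0.19 and -0.049.

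Aqp4, the water channel of the end-feet, was at 113, 113, 149 and 166 CPM in CTR and 135, 128, 110.1 and 102.5 CPM in SS. CTR-3 and CTR-5 were the highest libraries, and the other 2 CTR libraries lay inside the SS range. Its log2 fold change of -0.18 became -0.0038 without CTR-5 and SS-5 and -0.40 without CTR-1 and CTR-2. Mlc1, an end-foot membrane protein, ranged from 121 to 165 CPM in CTR and from 133 to 141 CPM in SS and differed by -0.069 on the log2 scale (95% interval -0.30 to 0.16), or -0.13 without CTR-5 and SS-5. Hepacam, the adhesion protein that escorts MLC1 to cell contacts, averaged 196 ± 26.1 and 171 ± 10.9 CPM with -0.20 (95% interval -0.44 to 0.037).

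**Figure D2:**
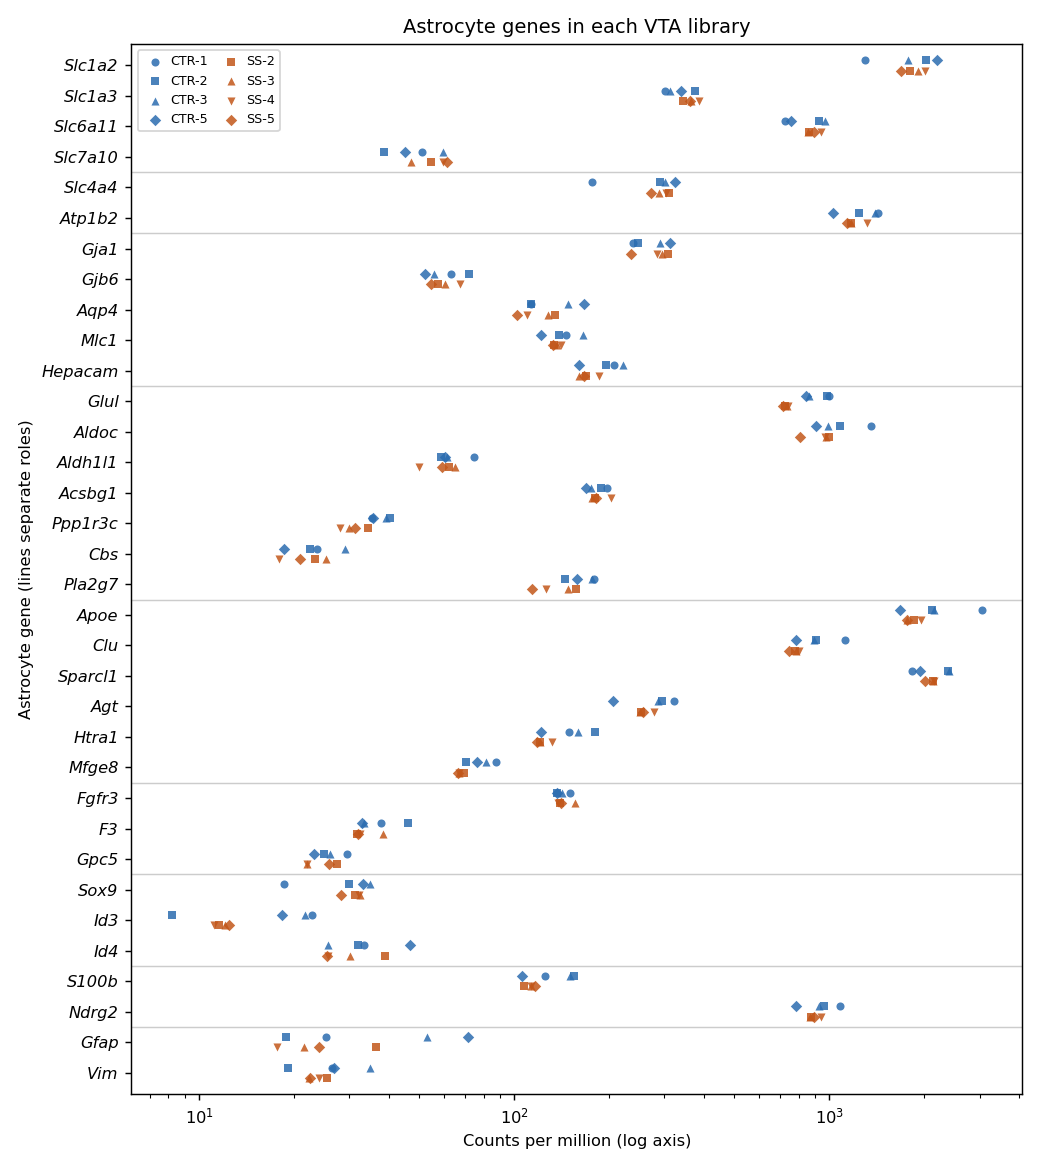
CPM of the 34 astrocyte genes in each library on a log axis, with CTR libraries in blue and SS libraries in orange, 1 marker shape per library number and lines between roles. The SS libraries lie close together for most genes, CTR-1 stands low for Slc1a2, Slc4a4 and Sox9 and high for Apoe and Aldoc, and Gfap spreads from 17.7 to 71.2 CPM.

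Of the 7 metabolic enzymes, 3 had an unadjusted p under 0.05, each with a lower level in SS, and Glul had the lowest p of all 34 genes. Glul encodes glutamine synthetase, which makes glutamine from glutamate and ammonia and which in the brain is found mainly in astrocytes. It was at 1002, 981, 865 and 843 CPM in the CTR libraries and at 724, 734, 739 and 715 CPM in the SS libraries. Every SS library was below every CTR library, and the 4 SS libraries lay close together. The mean was 923 ± 80.3 CPM across CTR and 728 ± 10.7 CPM across SS libraries (SD, n = 4). This came to 78.9% of the CTR level, or -0.34 on the log2 scale (SE 0.077, 95% interval -0.51 to -0.17).

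The adjusted p of Glul was 0.319 in edgeR's quasi-likelihood test and 0.0156 in DESeq2, the one alternative of 18 that called it. Over these alternatives it ranged from 0.0156 to 0.999. The upper value came from edgeR with 1 library left out, where Slc1a3, Apoe and Utrn reached the same value. The exact two-sided permutation test gave 0.029, the smallest p that 4 against 4 libraries allow. The log2 fold change stayed within -0.38 to -0.30 when each library was left out, was -0.37 without CTR-5 and SS-5, and was -0.23 without CTR-1 and CTR-2. Glul lies at chr1:153899944-153909723 on GRCm38 and shares 116 exonic bases with Teddm2 on the other strand and 93 with Mir8114, out of 3323.

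Ppp1r3c encodes a subunit that brings protein phosphatase to glycogen and favours glycogen synthesis. It was at 35.5, 40.5, 39.1 and 35.7 CPM in CTR and 34.5, 30.0, 27.9 and 31.3 CPM in SS, so the groups did not overlap, although SS-2 came close to CTR-1. Its log2 fold change was -0.29 (SE 0.13), and edgeR's quasi-likelihood test gave an adjusted p of 0.755. Pla2g7, the phospholipase that breaks down platelet-activating factor, was at 179, 145, 177 and 159 CPM in CTR and 157, 148, 127 and 114 CPM in SS, where SS-4 and SS-5 lay below every CTR library and SS-2 and SS-3 lay within their range. The difference in Pla2g7 was -0.27 on the log2 scale (95% interval -0.53 to -0.0092).

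The other 4 enzymes did not reach an unadjusted p of 0.05. Aldoc, the brain form of the glycolytic enzyme aldolase, averaged 1085 ± 192 CPM across CTR and 941 ± 88.0 CPM across SS libraries (SD, n = 4), with CTR-1 highest, and its log2 fold change went from -0.21 to -0.016 without CTR-1 and CTR-2. Aldh1l1, a folate enzyme used as a marker of all astrocytes, averaged 63.6 ± 7.30 CPM across CTR and 58.9 ± 6.54 CPM across SS libraries (SD, n = 4). Acsbg1, which activates long-chain fatty acids, and Cbs, which makes cystathionine and hydrogen sulfide, had log2 fold changes of 0.028 (95% interval -0.17 to 0.22) and -0.096 (-0.48 to 0.29), which became 0.0025 and -0.17 without CTR-5 and SS-5. Acsbg1 ranged from 169 to 197 CPM in CTR and from 177 to 203 CPM in SS, and Cbs averaged 23.5 ± 4.33 and 21.9 ± 3.18 CPM (SD, n = 4 each).

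All 6 secreted and matrix proteins had log2 fold changes below 0 (median -0.24), although Sparcl1 lay above 0 without CTR-2, CTR-3 or SS-5 and Agt without CTR-1 and CTR-2 together. Of the 6, 3 had an unadjusted p under 0.05. Mfge8, which bridges dying cells and phagocytes, was at 87.9, 70.3, 81.2 and 76.4 CPM in CTR and 69.3, 66.9, 66.9 and 66.2 CPM in SS, again without overlap, and CTR-2 was the CTR library nearest to SS. On the log2 scale Mfge8 differed by -0.23 (SE 0.10), for which edgeR's quasi-likelihood test gave an adjusted p of 0.755. Htra1, a secreted protease, was at 149.9, 180.4, 159.8 and 122 CPM in CTR and 121, 121, 132 and 118 CPM in SS. In CTR-5 it lay inside the SS range, and the other 3 CTR libraries lay above it. The log2 fold change of Htra1 was -0.32 (95% interval -0.57 to -0.06).

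Apoe and Clu encode the lipid-carrying apolipoproteins E and J. Clu was at 1119, 908, 898 and 783 CPM in CTR and 782, 784, 805 and 743 CPM in SS, with CTR-1 highest and CTR-5 inside the SS range. Apoe was at 3053, 2120.3, 2144 and 1680.3 CPM in CTR and 1864, 1770.2, 1949 and 1767 CPM in SS. Without CTR-1 the log2 fold change went from -0.25 (95% interval -0.47 to -0.035) to -0.15 for Clu and from -0.29 (-0.60 to 0.018) to -0.11 for Apoe, and without CTR-5 and SS-5 it was -0.30 and -0.39. Sparcl1, the matrix protein hevin that promotes synapse formation, averaged 2144 ± 296 CPM across CTR and 2111 ± 65.5 CPM across SS libraries (SD, n = 4). Agt, angiotensinogen, which astrocytes of midbrain and hindbrain make in quantity, ranged from 206 to 321 CPM in CTR and from 251 to 279 CPM in SS, and had a log2 fold change of -0.094 (95% interval -0.36 to 0.18). Without CTR-5 and SS-5 the log2 fold change of Sparcl1 went from -0.022 to -0.044 and that of Agt to -0.21.

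**Figure D3:**
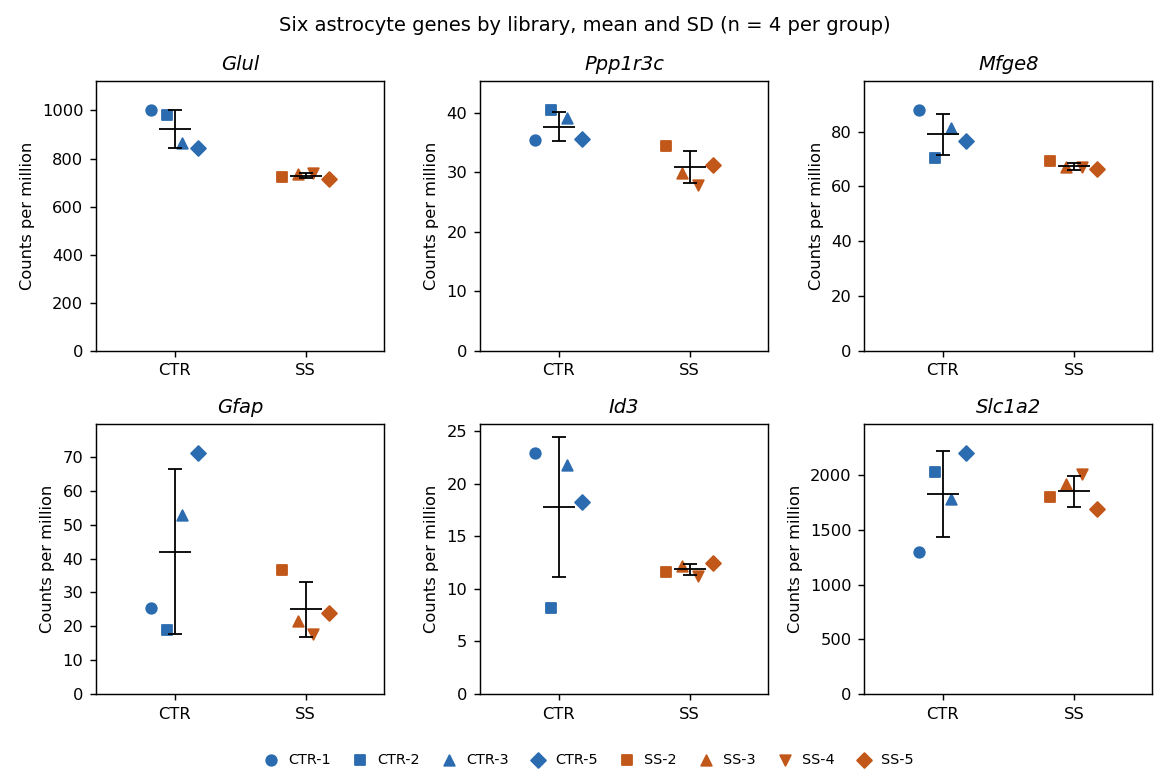
CPM per library for Glul, Ppp1r3c, Mfge8, Gfap, Id3 and Slc1a2, with CTR in blue, SS in orange, 1 marker shape per library number and the mean ± SD in black (n = 4 per group, axes from 0). In Glul, Ppp1r3c and Mfge8 the groups do not overlap, and in Gfap, Id3 and Slc1a2 the SS libraries lie within or across the wide range of the CTR libraries.

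Of the surface proteins, Fgfr3, a receptor for fibroblast growth factors carried by astrocytes, averaged 142 ± 6.41 CPM across CTR and 143 ± 8.38 CPM across SS libraries (SD, n = 4). The difference was 0.018 on the log2 scale (95% interval -0.17 to 0.21). F3, tissue factor, which starts blood clotting, ranged from 32.9 to 46.1 CPM in CTR and from 31.8 to 38.4 CPM in SS, with CTR-2 highest and a difference of -0.16 (95% interval -0.48 to 0.16). Gpc5, a heparan sulfate proteoglycan, ranged from 23.3 to 29.5 and from 22.0 to 27.3 CPM, with -0.089 (-0.41 to 0.23), or -0.17 without CTR-5 and SS-5. Exons of Fgfr3 and Gpc5 overlap transcripts on the other strand (G630022F23Rik and Gm20713).

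The transcription regulators had wide spreads among the CTR libraries. Sox9, the factor that specifies astrocytes, was at 18.6, 29.9, 34.99 and 33.1 CPM in CTR and 28.2 to 32.3 CPM in SS, with only CTR-1 standing apart. Its log2 fold change was 0.089, and 0.20 without CTR-5 and SS-5. Id3, an inhibitor of basic helix-loop-helix factors and a target of BMP signalling, was at 22.9, 8.20, 21.7 and 18.3 CPM in CTR and 11.6, 12.1, 11.2 and 12.4 CPM in SS. CTR-2 was the lowest of all 8 libraries and the other 3 CTR libraries were the highest, so the log2 fold change of -0.59 (95% interval -1.18 to 0.012) ran over -0.82 to -0.44 when each library was left out. Id4, of the same family, ranged from 25.6 to 46.6 CPM in CTR and from 25.4 to 39.1 CPM in SS, and its log2 fold change of -0.19 was 0.062 without CTR-5 and SS-5.

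S100b, a calcium-binding protein, was at 125, 155, 150.4 and 106 CPM in CTR and 107, 113, 113 and 116 CPM in SS. CTR-5 lay below all 4 SS libraries and the other 3 CTR libraries lay above them. The difference in S100b was -0.25 on the log2 scale (95% interval -0.52 to 0.013). Ndrg2, a growth-arrest protein abundant in astrocytes, averaged 939 ± 122 and 897 ± 31.4 CPM (SD, n = 4 each) and differed by -0.067 on the log2 scale (95% interval -0.27 to 0.14), or -0.14 without CTR-5 and SS-5.

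The intermediate filaments Gfap and Vim, which reactive astrocytes are known to make more of, both had log2 fold changes below 0. Gfap was at 25.3, 18.8, 53.0 and 71.2 CPM in CTR and 36.6, 21.6, 17.7 and 24.1 CPM in SS. CTR-3 and CTR-5 were the 2 highest libraries, and CTR-1 and CTR-2 lay within the SS range. The Gfap difference was -0.75 on the log2 scale (SE 0.37, 95% interval -1.57 to 0.058), edgeR's quasi-likelihood test gave an adjusted p of 0.755, and the difference was -0.37 without CTR-5, -0.36 without CTR-5 and SS-5 and -1.31 without CTR-1 and CTR-2.

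CTR-5, the library highest in Gfap, also held 234 CPM of Ttr, a choroid plexus gene that ranged from 3.67 to 18.7 CPM in the other 7 libraries, and 403 CPM of Slc17a7, a vesicular glutamate transporter of cortical and other forebrain neurons that ranged from 13.9 to 243 CPM in the others. Of the 4 choroid plexus markers, 2 passed the filter, and their summed level was 4.75 to 244 CPM in CTR and 11.1 to 15.2 CPM in SS. Slc17a7 stood at 243 CPM in CTR-2, the CTR library lowest in Gfap, and at 56.9 CPM in CTR-3, the next highest in Gfap. The part of the choroid plexus and Slc17a7 transcripts in the Gfap values was not tested. Vim ranged from 19.2 to 34.8 CPM in CTR and from 22.3 to 25.6 CPM in SS, and its difference was -0.18 on the log2 scale (95% interval -0.57 to 0.21), which ran from -0.31 without CTR-2 to -0.035 without CTR-3.

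Per kilobase of exon, the genes kept nearly the same order in both groups. In CTR, Apoe led with 1052 CPM per kb, followed by Sparcl1 at 729.9, Aldoc at 333 and Atp1b2 at 312 CPM per kb. Vim at 5.65 and Cbs at 3.14 CPM per kb closed the list, 335-fold below Apoe at the end. Gfap stood at rank 28 in CTR with 9.98 CPM per kb and at rank 31 in SS with 5.92. Of the 34 genes, 16 held the same rank in both groups, and the largest move was 4 ranks, for Acsbg1.

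Exon length moved with some of these values. Within CTR-1 the deviation of the 34 genes from their own means decreased with exon length (Spearman rho = -0.42 over 34 genes), so the long transcripts of Slc1a2 (13133 bases) and Slc4a4 (10815 bases) stood low there and the short ones of Apoe (2138 bases) stood high. In CTR-5 the rho was 0.43, against -0.33 for CTR-2 and -0.17 for CTR-3, and it lay between 0.087 and 0.54 in the SS libraries. Over 9084 genes of similar level it was -0.55 in CTR-1 and 0.48 in CTR-5, so the pattern was not confined to astrocyte genes.

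The log2 fold changes of the 34 genes also had a rho of 0.43 with exon length, which was 0.24 without CTR-1, -0.025 without CTR-1 and CTR-2, 0.56 without CTR-5 and 0.58 without CTR-5 and SS-5. Over all 16455 tested genes with a length it was 0.22. Of the 17 shorter genes 16 had a log2 fold change below 0 (median -0.21), and of the 17 longer genes 9 did (median -0.085). These correlations are descriptions across genes that share libraries and carry no p. The part of length in the differences between groups was not tested, and Glul, at 3323 bases, is among the shorter genes.

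**Figure D4:**
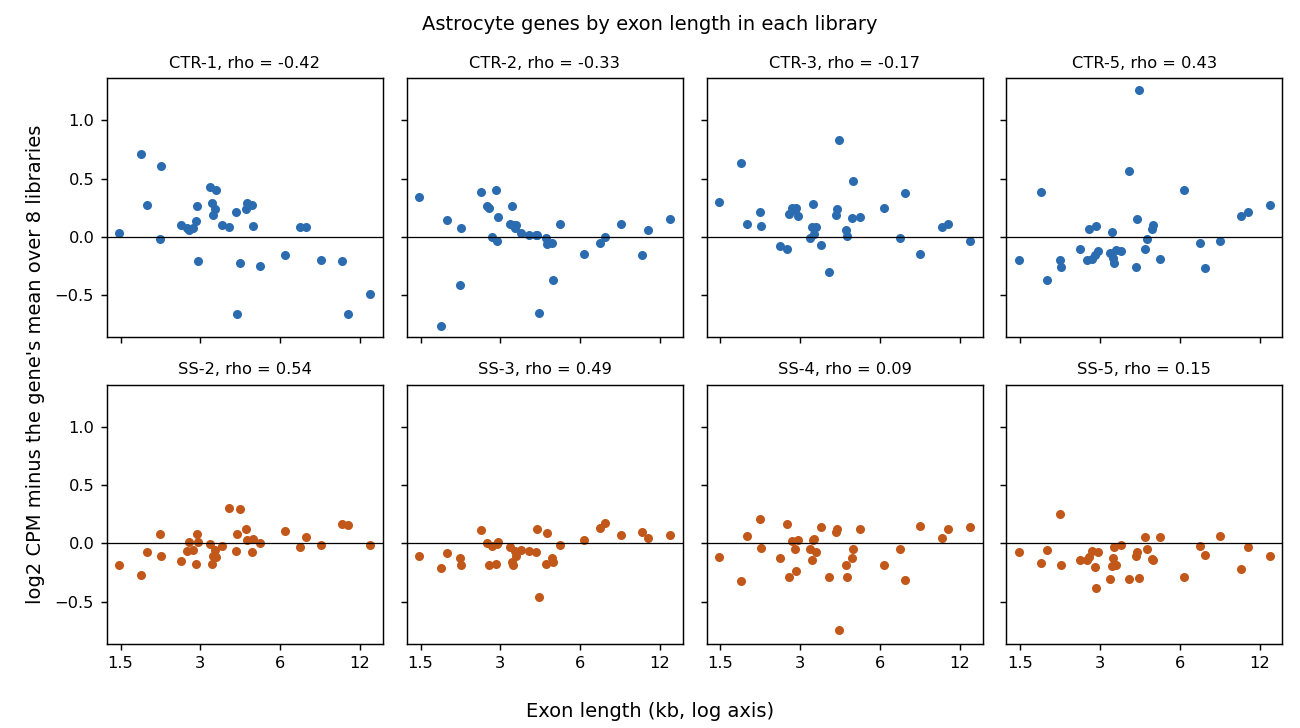
Deviation of each of the 34 astrocyte genes from its mean log2 CPM over the 8 libraries, against exon length in kb on a log axis, in 1 panel per library with Spearman's rho in the title. Points slope downwards in CTR-1 (rho = -0.42) and upwards in CTR-5 (0.43), SS-2 (0.54) and SS-3 (0.49).

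The SS libraries were tighter than the CTR libraries. The SD of log2 CPM was larger in CTR for 29 of the 34 genes (85.3%), with a median of 0.22 in CTR and 0.090 in SS. Of all genes tested, 82.3% had a larger SD in CTR, and 85.3% of the genes of similar level did, so this held for the libraries as a whole.

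Further genes of astrocyte pathways were examined as 7 lists with 149 genes, of which 140 were tested and 0 passed the threshold in edgeR's quasi-likelihood test with Benjamini-Hochberg adjustment. Without adjustment 9 had a p under 0.05 with a lower level in SS (against 3.70% of all genes) and 3 with a higher level (against 2.85%). The groups did not overlap for 5 genes lower in SS (against 2.21% of all genes) and 2 higher (against 2.47%). DESeq2 and limma voom each called 1 of them, Etv5. Etv5, a transcription factor that follows FGF receptor signalling, was at 40.1, 46.4, 33.3 and 46.9 CPM in CTR and 19.9, 23.9, 18.8 and 23.03 CPM in SS. Every SS library was below every CTR library, at 51.4% of the CTR level on average.

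The log2 fold change of Etv5 was -0.96 (SE 0.15). The quasi-likelihood test of edgeR gave an adjusted p of 0.0507, just short of the threshold, and DESeq2 gave 5.9e-06. It passed in 8 of the 18 alternatives, over which the adjusted p ranged from 5.9e-06 to 0.483. Etv5 is not particular to astrocytes, and the cells behind this value cannot be told apart in whole punches. The receptor Fgfr3 (0.018) and Fgf1 (0.02), the most abundant gene of the signalling list that Etv5 belongs to, had log2 fold changes close to 0. That of Fgf1 was -0.046 without CTR-5 and SS-5. Others in that list went both ways. Spry1 had 0.66 (95% interval -0.38 to 1.70), Spry4 0.55 (-0.11 to 1.21) and Etv4 0.044 (-0.62 to 0.71). Below 0 were Spry2 at -0.19 (-0.71 to 0.32), Dusp6 at -0.11 (-0.67 to 0.45) and Fgf2 at -0.33 (-0.81 to 0.16). In the same list the Notch targets Hey1 and Hes5 had -0.31 (95% interval -0.58 to -0.031) and -0.55 (-1.09 to -0.0065), while Hes1 had -0.092 (-0.98 to 0.80) and Hey2 -0.27 (-0.96 to 0.43). Hes1, Hey2, Etv4, Spry1, Spry2, Spry4, Dusp6 and Fgf2 were added after their values were seen, and no left-out library was tried for them. The log2 fold change of Hes5 was -0.099 without CTR-1 and CTR-2 and -0.83 without CTR-5 and SS-5.

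Other astrocyte-enriched genes, 35 in number, had a median log2 fold change of -0.11, with 21 below 0. The lowest p values in that list belonged to Itih3, a hyaluronan-binding protein (log2 fold change 0.40, 95% interval 0.071 to 0.73), Mertk, a phagocytic receptor (-0.54, -1.02 to -0.071), and Cxcl14, a chemokine (-0.41, -0.77 to -0.035). Itih3 went to 0.19 without CTR-5 and SS-5, and Cxcl14 to -0.069 without CTR-1 and CTR-2.

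Of 34 genes known from reactive astrocytes, 25 were tested, 11 lay below 0 and 14 above, and their median was 0.048. Only 8 of the 25 (32%) had a 95% interval within a log2 fold change of 1 in either direction, against 64.7% of all genes tested. The median therefore bounds the single genes of this list poorly. Serpina3n, a protease inhibitor and the most abundant of the tested ones, was at 60.0, 56.8, 51.8 and 62.8 CPM in CTR and 67.8, 67.8, 65.5 and 55.4 CPM in SS, a log2 fold change of 0.15, or 0.25 without CTR-5 and SS-5. Amigo2, an adhesion protein, was higher in all 4 SS libraries (29.1 to 34.4 CPM) than in any CTR library (19.1 to 27.7 CPM), at a log2 fold change of 0.39 (edgeR's quasi-likelihood test, adjusted p = 0.755). Cd109 (-2.44), a membrane protein that binds TGF-beta, had at most 10.98 CPM, in CTR-5, and differed by -1.28 without that library and by -1.0 without CTR-5 and SS-5, and Hspb1, a small heat shock protein, had -0.66 (95% interval -1.56 to 0.24).

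In the complex that anchors Aqp4 at the end-feet, 4 of 6 genes lay above 0. Utrn, utrophin, was at 55.3, 77.3, 72.8 and 78.1 CPM in CTR and 92.2, 114, 95.8 and 88.5 CPM in SS, without overlap. The difference was 0.46 on the log2 scale (SE 0.13), and edgeR's quasi-likelihood test gave an adjusted p of 0.594. Utrn is long (17108 exonic bases) and CTR-1 was its lowest library. Its log2 fold change was 0.36 without CTR-1 and 0.37 without CTR-1 and CTR-2, and the part of length was not tested. Dystroglycan (Dag1, 0.22), beta-1-syntrophin (Sntb1, -0.45) and alpha-dystrobrevin (Dtna, 0.087) of the same complex had intervals that included 0. Dag1 was at 0.042 to 0.32 and Sntb1 at -0.63 to -0.18 when each library was left out, with Dag1 closest to 0 without CTR-1 and Sntb1 without CTR-5. Without CTR-5 and SS-5, Sntb1 had -0.27 and Dtna 0.18.

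Glycogen and lactate genes had a median log2 fold change of 0.0092 over 16 genes. Ldhb, the lactate dehydrogenase subunit and the most abundant of them, was at 415, 366, 393 and 304 CPM in CTR and 306, 300.2, 299 and 302 CPM in SS, where CTR-5 lay inside the SS range. The difference in Ldhb was -0.29 on the log2 scale (95% interval -0.51 to -0.078). Slc16a3, a lactate transporter, had -0.54, and Phka1, a phosphorylase kinase subunit, had 0.22.

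Sterol synthesis and lipid export genes lay above 0 in 16 of 18 cases, where 8365 of all 16538 genes tested did. These genes share libraries, and the count carries no test. Their median was 0.081, with a largest value of 0.24 for Abca1, the cholesterol exporter. Hmgcs1, the most abundant, averaged 501 ± 67.1 CPM across CTR and 538 ± 20.5 CPM across SS libraries (SD, n = 4). None of the 18 had an unadjusted p under 0.05, and without CTR-1 and CTR-2 the log2 fold change of Hmgcs1 went from 0.10 to -0.051. Without CTR-5 and SS-5 those of Hmgcs1 and Abca1 were 0.16 and 0.38.

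Among the partners that pass glutamine and glutamate between astrocytes and neurons, 8 of 11 lay below 0. Slc17a6, the vesicular glutamate transporter of subcortical neurons, was at 334, 395, 445 and 369 CPM in CTR and 452, 453, 427 and 439 CPM in SS, a log2 fold change of 0.20. Slc17a7 had -2.16 (95% interval -3.79 to -0.53), with CTR-2 and CTR-5 as its highest libraries. The groups overlapped, as CTR-1 at 13.9 CPM lay below every SS library (21.5 to 64.5 CPM). The glutamine carrier Slc38a5 had -0.65 (95% interval -1.36 to 0.05), or -1.0 without CTR-5 and SS-5.

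The differences in astrocyte genes were small beside those of dopaminergic markers. The dopaminergic list had a median log2 fold change of -3.99, with -6.22 for the dopamine transporter Slc6a3 (adjusted p = 0.000531) and -3.99 for Th (adjusted p = 0.000531, edgeR's quasi-likelihood test). General neuron markers had a median of -0.18 and summed to 7059 to 7374 CPM in CTR and 5959 to 6474 CPM in SS, without overlap. Snap25, a synaptic protein and the most abundant neuron marker, had a log2 fold change of -0.36 (95% interval -0.53 to -0.20), close to that of Glul. It passed DESeq2 (adjusted p = 0.0108) and not edgeR's quasi-likelihood test (adjusted p = 0.241), as Glul did. The part of neurons in the Glul values was not tested.

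Oligodendrocyte markers summed to 23166 to 32718 CPM in CTR and 26356 to 29173 CPM in SS (9 of 9 tested, median -0.059), and those of their precursors had a median of 0.10. Microglia markers had a median of -0.20 over 9 genes and summed to 273 to 386 and 263 to 294 CPM. Endothelial and mural markers had medians of 0.18 and 0.22, and ependymal and tanycyte markers summed to 13.8 to 26.5 CPM in CTR and 14.4 to 18.7 CPM in SS, with 2 of 7 above the filter. Fibroblast and meningeal markers summed to 21.5 to 36.3 and 30.6 to 38.9 CPM, and red blood cell genes to 45.4 to 82.8 and 49.9 to 65.1 CPM. The most abundant genes of these lists, microglia aside, had log2 fold changes of -0.14 (Mbp, oligodendrocytes), 0.083 (Gpr17, their precursors), -0.036 (Flt1, endothelium), 0.089 (Rgs5, mural cells), 0.18 (Foxj1, ependyma), 0.59 (Col1a2, fibroblasts) and -0.16 (Hbb-bs, red blood cells). Ret, the most abundant gene of the dopaminergic list over all 8 libraries, had -1.31, whereas Slc6a3 was the more abundant of the pair in CTR. The part of these cells in the astrocyte values was not tested.

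**Figure D5:**
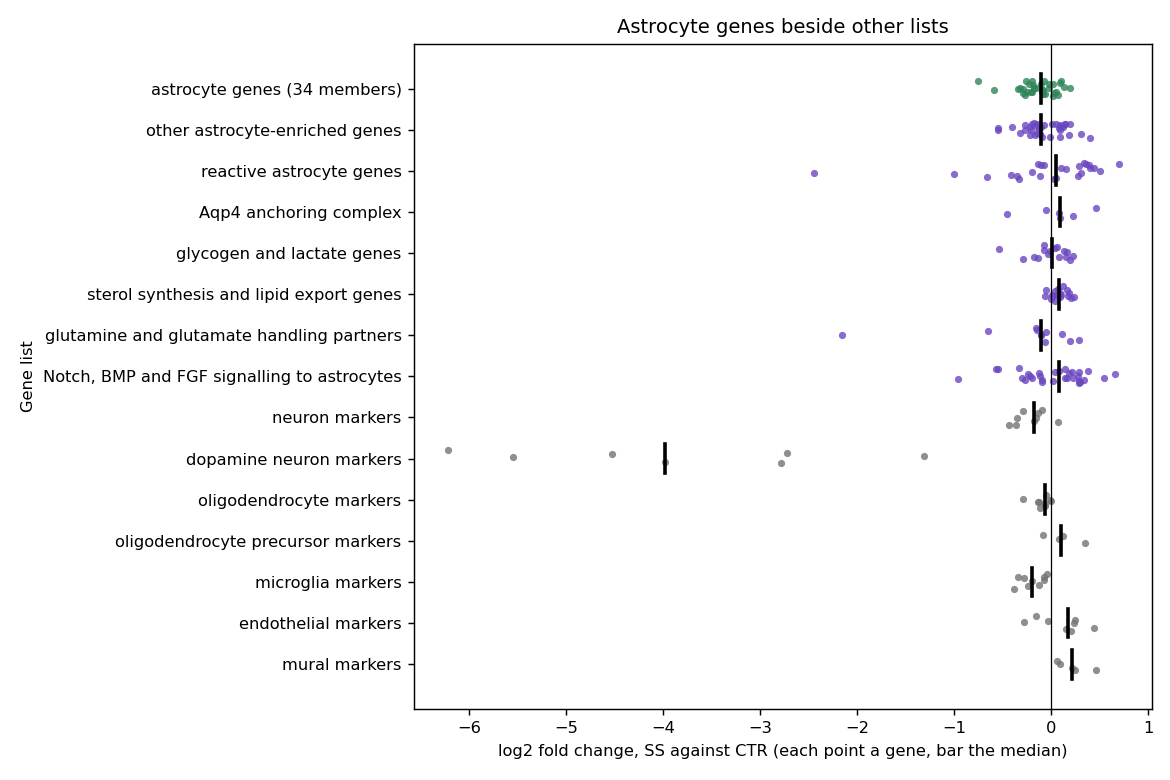
Log2 fold change of SS against CTR for the 34 astrocyte genes (green), the 7 astrocyte pathway lists (purple) and markers of 7 other cell types (grey), with 1 point per tested gene and a black bar at each list's median. The astrocyte genes centre at -0.10 between -0.75 and 0.20, while the dopaminergic markers centre at -3.99.

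The 25 negative log2 fold changes among the 34 genes numbered 22 to 28 over the 18 alternative settings and left-out libraries, and the median of the 34 stayed between -0.16 and -0.077. No setting other than DESeq2 called any of the 34 genes. Single values were less stable: the log2 fold change of 25 of the 34 moved by over 1.5 times or changed sign when 1 library was left out, that of 23 without CTR-1 and CTR-2, and that of 18 without CTR-5 and SS-5. Without CTR-5 and SS-5 the median was -0.16 and 24 genes lay below 0, and without CTR-1 and CTR-2 it was -0.095 with 25 below 0.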

How the data were processed

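RNA of bilateral VTA punches was sequenced by the authors as 1 single-end library per mouse (75 bp). Cutadapt was used for trimming, STAR for alignment (mm10) and htseq-count with Ensembl genes for counting, and the authors deposited the raw whole counts per gene. Strand setting and tool versions were not given in the sources used here. Groups were taken from the sample titles, 4 CTR and 4 SS. Litter is not labelled and was not modelled, so the tests treat each library as independent. The methods of the study assigned litters to a group, so siblings, if present, share a group. In that case p-values and intervals could be too small and too narrow.

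Counts were analysed in R 4.3.3 with edgeR 4.0.16: filterByExpr (minimum count 10, minimum total 15), TMM, glmQLFit and glmQLFTest on group alone, with p-values adjusted over 16538 genes by Benjamini-Hochberg at 0.05. The biological coefficient of variation was 0.384. CPM uses TMM library sizes. An exact permutation test (two-sided, 70 assignments) was run on each gene's log2 CPM, prior count 2. Alternatives were DESeq2 1.42.0 with default options, voom of limma 3.58.1, other normalizations and filters, edgeR's bias-adjusted estimate, left-out libraries and a replicate block. The block was the label number. CTR-1 and SS-4 have no library of the same number in the other group, so they did not inform its group difference. The fits were tested on simulated data.

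The members, lists and tests were chosen with earlier results of these data known. Every member is named; of each pathway list, genes past the threshold, otherwise the most abundant gene by CPM and up to 3 with the smallest p; of cell type lists, the markers used to check the sample and the most abundant gene of each. Some genes that this rule names are not reported here. Positions and exon lengths come from GENCODE M21 (GRCm38), and promoters from RefSeq (GRCm38.p6). Exons of 8 members overlap other genes, and such counts are uncertain: Aldh1l1, Fgfr3, Glul, Gpc5, Id4, Pla2g7, Slc1a2 and Slc7a10. Counting error was not set against the spread between libraries. It weighs more in genes with few counts, such as Cd109, with 7 to 45 counts in the SS libraries.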

Additional observations from a re-analysis of the deposited data

Results flagged for a closer look

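In 4 of the 68 groups of 4 libraries formed by the 34 genes and both conditions, 1 library lay far from the other 3 by Dixon's ratio (its gap to the nearest library over the range of the group). Chance alone gives about 1 in 20, or 3.4 of 68. All 4 were SS groups, and no explanation was tested.

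SS-5 was the lowest SS library for Aldoc (ratio 0.854), at 809.8 CPM against at least 972 CPM in the other 3, and for Sparcl1 (ratio 0.835), at 2014 against 2133 to 2157 CPM. SS-3 was the highest SS library for Fgfr3 (ratio 0.858), at 156 CPM against 138 to 140.4 CPM, and for F3 (ratio 0.913), at 38.4 CPM against 31.8 to 32.3 CPM. SS-5 is also a library whose sex transcripts went against its label.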

How the results depend on the processing

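No alternative other than DESeq2 changed the count of astrocyte genes called, which was 0 in the main test and 1 with DESeq2 (Glul). The median of the 34 log2 fold changes stayed between -0.16 and -0.077 over the alternatives. Of all genes, 14 were called in the main test, 81 by DESeq2 (60 lower and 21 higher), 27 with the bias-adjusted estimate, 22 without a filter, 22 at a mean count of at least 50, 9 with the replicate block, 9 without CTR-5 and SS-5, and 6 (without SS-4) to 19 (without CTR-2) with 1 library left out, with 7 without SS-3 and 8 without SS-2. Of the pathway genes, 1 was called (Etv5) by DESeq2, voom, the bias-adjusted estimate, DESeq2's size factors, upper-quartile normalization, no filter and a mean count of at least 50, and 0 to 1 with 1 library left out, where the call came without CTR-3. The replicate numbers gave correlations of deviations of -0.0017, -0.012 and 0.064 for numbers 2, 3 and 5, so they were not taken to pair mice. Signs of small differences depended on the libraries used, and the cause was not tested. With the replicate block the sign changed for Slc1a2 -0.15, Slc6a11 -0.015, Slc4a4 -0.071, Gja1 -0.022, Aldh1l1 0.046, Cbs 0.0086, Gpc5 0.019, Sox9 -0.093 and Dtna -0.054. Without CTR-1 and CTR-2 it changed for Slc1a2 -0.10, Slc4a4 -0.088, Gja1 -0.10, Gjb6 0.15, Agt 0.078, F3 0.023, Sox9 -0.13, Ndrg2 0.069 and Hmgcs1 -0.051. Without CTR-5 and SS-5 it changed for Id4 0.062 and Fgf1 -0.046. With 1 library left out the values ran, across 0, over Slc1a2 -0.11 to 0.12, Slc4a4 -0.054 to 0.20, Gja1 -0.012 to 0.12, Gjb6 -0.091 to 0.069, Mlc1 -0.14 to 0.0017, Acsbg1 -0.015 to 0.069, Cbs -0.19 to 0.019, Sparcl1 -0.089 to 0.035, Fgfr3 -0.022 to 0.050, Sox9 -0.072 to 0.18, Ndrg2 -0.14 to 0.0087, Dtna -0.012 to 0.18 and Fgf1 -0.043 to 0.069. The 34 genes had mean levels of 14.8 CPM and more, and the intervals rest on 4 libraries per group, with a wide spread among CTR libraries.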
